A study of Homo sapiens with 95 samples.

Results

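The response described here is that of 1 cell population to cigarette smoke condensate (CSC), the particulate fraction of smoke collected in a solvent. The cells were AALE cells, an immortalized human bronchial epithelial line, carrying an empty vector with the red fluorescent reporter HcRed, which served in the study as the control for overexpression constructs. Of the 95 libraries in the series, 6 wells made up the comparison. They were 3 wells of HcRed cells given 24 µg/ml CSC and 3 given the vehicle DMSO, all in the same growth medium. Beyond the reporter, the study overexpressed or knocked out no gene in them. How long the cells were exposed is not given in the sources used here. The DMSO wells lay in plate row A and the CSC wells in row C, so chemical and plate row cannot be told apart within these 6 wells. GFP cells (the Cas9 vector PX458 without a guide, the control for knockout) and NRF2 cells (overexpressing NRF2) under CSC and DMSO, 3 wells a side each, were set beside them. GFP cells shared rows A and C with the HcRed cells, and NRF2 cells lay in rows B and D.

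Libraries were made by 3′ digital gene expression, which reads the ends of polyadenylated transcripts and counts each tagged molecule once by its unique molecular identifier (UMI). Levels are therefore given as CPM, UMI counts relative to the library total after trimmed-mean scaling (TMM), and are not set against gene length. They are used here to compare the same gene, or the same sum of genes, between wells, and not one gene with another. The 6 wells held 752338 to 1359967 UMIs, with the lowest total in CSC replicate 1, and detected 46.7% to 51.8% of the 23895 genes listed. Pairs of wells of the same group differed by more than counting noise (chi-square per degree of freedom 1.17 to 1.63). Preparing 1 culture more than once could also add such noise, so these values do not show whether the cultures were separate. The study describes its replicates as biological without saying how the cultures were kept apart, so the p-values speak for these wells only. They come from a moderated test that shares the spread between wells over genes (58.2 prior degrees of freedom in HcRed cells). A very small p therefore does not rest on the spread of that gene's own wells alone.

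Smoke condensate carries polycyclic aromatic hydrocarbons and electrophiles. Hydrocarbons bind the aryl hydrocarbon receptor (AHR), which enters the nucleus, pairs with ARNT and switches on cytochrome P450 genes such as CYP1A1 and CYP1B1. Electrophiles and oxidants modify KEAP1, which frees the transcription factor NRF2 (gene NFE2L2) to act at antioxidant response elements (AREs) of genes for glutathione, thioredoxin, quinone and iron handling. In airway epithelium both batteries are well known as responses to smoke.

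Promoters are shown for those of the 8 AHR or NRF2 battery genes with the smallest p and an entry in the RefSeq promoter table (build GRCh38.p14) that held a match, so that the elements the background speaks of can be seen. Each run is the 250 bases before the annotated start, 5′ to 3′ on the strand of the gene, with capitals marking GCGTG (the AHR core) or TGACNNNGC (the ARE core) on either strand. FTL was read from chr19:48965059-48965308 (plus strand), TXN from chr9:110256508-110256757 (minus), TXNRD1 from chr12:104215529-104215778 (plus), GPX2 from chr14:64942746-64942995 (minus) and TIPARP from chr3:156674340-156674589 (plus).
FTL: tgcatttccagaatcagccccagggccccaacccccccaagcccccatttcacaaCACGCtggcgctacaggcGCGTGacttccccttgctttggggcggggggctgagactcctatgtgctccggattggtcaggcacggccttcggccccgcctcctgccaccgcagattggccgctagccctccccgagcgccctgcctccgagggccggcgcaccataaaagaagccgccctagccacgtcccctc
TXN: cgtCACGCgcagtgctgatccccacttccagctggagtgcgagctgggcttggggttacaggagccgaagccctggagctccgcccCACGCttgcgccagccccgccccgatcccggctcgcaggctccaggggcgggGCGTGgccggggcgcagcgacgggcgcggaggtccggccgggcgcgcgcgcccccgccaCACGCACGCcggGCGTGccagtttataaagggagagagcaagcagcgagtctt
TXNRD1: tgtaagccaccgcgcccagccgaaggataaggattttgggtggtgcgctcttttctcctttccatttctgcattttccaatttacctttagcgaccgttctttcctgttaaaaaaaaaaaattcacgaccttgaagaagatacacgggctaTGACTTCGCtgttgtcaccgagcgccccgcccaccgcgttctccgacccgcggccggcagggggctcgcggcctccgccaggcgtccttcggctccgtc
GPX2: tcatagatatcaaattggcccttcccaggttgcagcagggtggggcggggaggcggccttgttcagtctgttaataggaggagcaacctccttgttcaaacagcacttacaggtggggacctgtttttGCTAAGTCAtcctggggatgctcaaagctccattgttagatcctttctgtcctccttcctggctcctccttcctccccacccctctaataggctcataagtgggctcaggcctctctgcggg
TIPARP: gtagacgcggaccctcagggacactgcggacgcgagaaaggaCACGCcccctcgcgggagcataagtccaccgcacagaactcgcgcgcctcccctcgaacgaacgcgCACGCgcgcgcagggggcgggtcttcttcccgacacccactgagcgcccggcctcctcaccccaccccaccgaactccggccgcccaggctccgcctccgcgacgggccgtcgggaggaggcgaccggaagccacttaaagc

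The promoter of TXN held 6 AHR cores, those of FTL and TIPARP held 2 each, and TXNRD1 and GPX2 held 1 ARE core each. MGST1, NQO1 and PTGR1 held neither in these 250 bases. Of 27305 promoters of this length, 31.9% held GCGTG and 11% held TGACNNNGC, and of the 8218 whose gene was tested, 46.4% and 12.2%. Among the 67 promoters of genes higher under CSC the shares were 40.3% and 17.9%, and among the 24 of lower genes 37.5% and 8.33%. TGACNNNGC can overlap the AP-1 motif TGACTCA, which 4.16% of all promoters and 2.58% of those of genes tested held. Among promoters of the higher genes 8.96% held it (6 of 67), and among those of the lower genes 0%.

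Under CSC, 115 of 11043 genes tested differed from DMSO at an adjusted p below 0.05 (limma-voom with Benjamini-Hochberg adjustment), which is 1.04% of the genes. CSC raised 78 (0.706%) and lowered 37 (0.335%). These are the shares of all genes to hold beside the counts of list members below. With library totals in place of TMM the split was 72 higher and 89 lower. The 3 CSC wells lay above the 3 DMSO wells for 735 genes (6.66%) and below them for 838 (7.59%), and 76 of the 78 higher and 36 of the 37 lower genes were among these. The median change was 0.71 on the log2 scale among higher genes, -0.52 among lower genes and -0.01 over all genes tested. Genes entered the test with a mean count above 1 over the 6 wells, where the lowest mean tested was 1.17 and the highest not tested was 1. Differing genes had higher counts at the median, with a median mean count of 114.3 among higher and 287 among lower genes, against 10.33 over all. The lowest mean count was 2 among the higher and 20.8 among the lower genes. The median standard error over all genes was 0.368 log2 units, so a 2-fold change in a gene of typical count was under 3 standard errors.

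**Figure D1:**
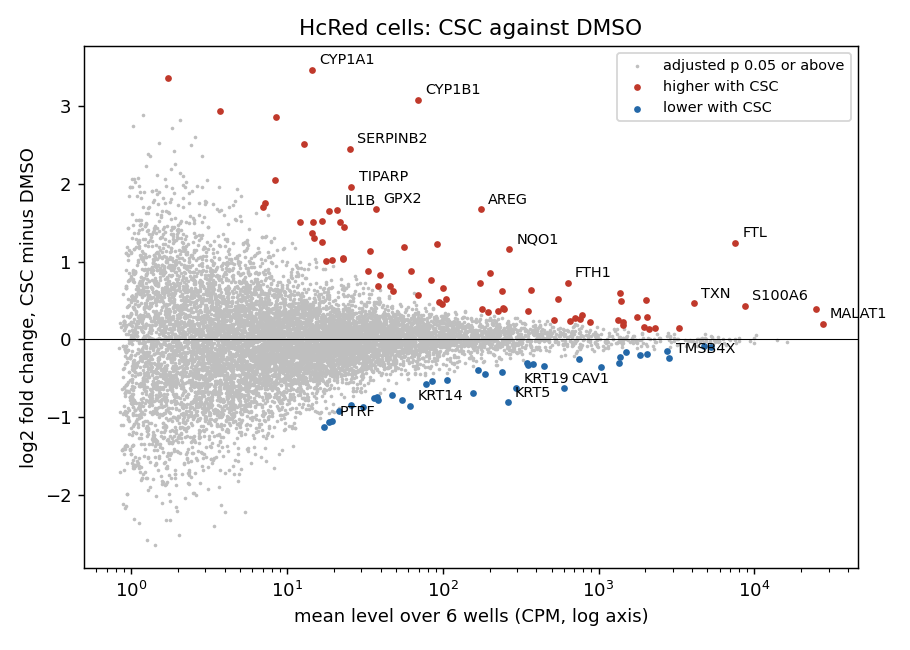
Log2 fold change between CSC and DMSO against the mean level in CPM (log axis) for 11043 genes of HcRed cells, with the 78 higher genes in red, the 37 lower in blue and the rest in grey. CYP1A1 and CYP1B1 stand highest among the labelled genes, at 3.46 and 3.08, while abundant genes such as MALAT1 passed the test with a change of 0.20, and the height of a low-count gene depends on the prior count of the fit.

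The 2 largest changes among the genes named by rule were in the AHR list. CYP1B1 (chr2:38294116-38337044, hg19, minus strand), which oxidizes hydrocarbons and estrogens, stood at 16.2, 11.4 and 15.6 CPM in the DMSO wells and at 143, 114 and 117 CPM in the CSC wells. The groups lay far apart, and CYP1B1 rose 8.45-fold (log2 fold change 3.08, standard error 0.211, limma-voom adjusted p = 2.35e-18). CYP1A1 (chr15:75011883-75017877, minus strand), the enzyme that turns benzo[a]pyrene into reactive epoxides, was near the limit of detection in DMSO with counts of 3, 2 and 3, and reached 25, 36 and 23 under CSC. Its summed counts gave a ratio of 12.7 (exact Poisson 95% interval 6.18 to 30.5, counting error only), and its fitted log2 change was 3.46 (95% interval 2.50 to 4.43, limma-voom adjusted p = 6.44e-07).

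TIPARP (chr3:156391024-156424559), an ADP-ribosyltransferase that restrains AHR, was measured at 10.3, 9.25 and 10.9 CPM in DMSO and 49.4, 36.1 and 39.9 CPM in CSC, a 3.90-fold rise (limma-voom adjusted p = 9.18e-08). NQO1 (chr16:69740899-69760571, minus strand), a quinone reductase that both AHR and NRF2 control, went from 157, 173 and 163 CPM to 371, 355 and 382 CPM, which was 2.24-fold (limma-voom adjusted p = 2.07e-17). These were the 4 of 10 tested members of the AHR list that passed, with a list median of 0.32 beside -0.01 over all genes. Neither the receptor nor its partner differed past the threshold. AHR itself stood at 14.5, 11.4 and 9.34 CPM against 18.7, 10.5 and 3.62 CPM (log2 change -0.42, 95% interval -1.12 to 0.29) and ARNT at -0.12 (-0.71 to 0.46). ALDH3A1, an aldehyde dehydrogenase of the same battery, held 3 to 8 counts a well in DMSO and 5 to 9 in CSC, with an interval of -0.24 to 1.62. AHRR, the AHR repressor, was too low to test, with at most 1 count in a DMSO well and 2 in a CSC well.

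Iron storage gave the call with the smallest p. FTL (chr19:49468566-49470136), the ferritin light chain, was counted 5310, 5960 and 5890 times in DMSO and 8093, 13480 and 11940 times in CSC, or 4538, 4240 and 4582 CPM against 10803, 10131 and 10820 CPM. Spread within each group was a small part of that gap, and FTL rose 2.36-fold (log2 fold change 1.24, standard error 0.022, limma-voom adjusted p = 4.38e-51). The heavy chain, FTH1 (chr11:61727190-61735106, minus strand), stood at 462, 487 and 482 CPM in DMSO and 796, 816 and 759 CPM in CSC, a 1.66-fold rise (adjusted p = 3.09e-15). No other member of the ferritin, heme and iron list passed among 16 tested, and the list median was 0.10. TFRC, the transferrin receptor, changed by 0.59 without passing (adjusted p = 0.15). HMOX1, the heme oxygenase often used as a mark of NRF2 activity, had a single count in the 6 wells and was not tested.

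The thioredoxin and peroxiredoxin system had 5 members higher and 1 lower among 15 tested, with a list median of 0.02. TXN (chr9:113006090-113018787, minus strand), thioredoxin itself, was at 3552, 3293 and 3494 CPM in DMSO and at 4653, 4584 and 5029 CPM in CSC (1.38-fold, adjusted p = 7.49e-22). Its reductase TXNRD1 (chr12:104609557-104744085), with an ARE core in the promoter printed above, was at 133, 138 and 160 CPM and then 218, 275 and 275 CPM (1.80-fold, adjusted p = 1.26e-09). PRDX1, a peroxiredoxin, rose 1.22-fold and SOD1, the cytosolic superoxide dismutase, 1.18-fold, both with no overlap of wells. SRXN1, which repairs oxidized peroxiredoxins, rose by 1.30 on the log2 scale from few counts (6 to 17 a well in DMSO, adjusted p = 0.0138). TXNIP, the protein that inhibits thioredoxin, was the lower one, at 76.1, 84 and 124 CPM in DMSO and 58.7, 66.9 and 58.9 CPM in CSC (adjusted p = 0.0316).

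In the 2 glutathione lists GPX2, MGST1, GSTM3, SLC3A2 and GLRX passed and the other members did not. GPX2 (chr14:65405870-65409464, minus strand), the epithelial glutathione peroxidase, went from 18.8, 14.9 and 19.4 CPM to 61.4, 59.4 and 50.7 CPM, a 3.20-fold rise (adjusted p = 1.53e-08). MGST1, a membrane glutathione transferase, was at 1749, 1576 and 1677 CPM in DMSO and 2363, 2355 and 2365 CPM in CSC (1.42-fold, adjusted p = 9.3e-18), and GSTM3, a cytosolic transferase, rose 1.54-fold. GCLC and GCLM, the subunits of the rate-limiting ligase, gave log2 changes of 0.15 (95% interval -0.32 to 0.62) and 0.36 (-0.27 to 1.00) and did not pass, so a rise the size of GPX2's was outside both intervals. SLC7A11, the cystine transporter, was at 17.1, 22.1 and 25.7 CPM and then 24, 36.8 and 43.5 CPM (adjusted p = 0.13), while its partner chain SLC3A2 passed at 1.39-fold (adjusted p = 0.0413). GLRX, glutaredoxin, passed narrowly at 1.37-fold. In all, 3 of 14 tested genes of glutathione synthesis and recycling and 2 of 15 of the transferases were higher and none lower, with medians of 0.23 and 0.08. Without DMSO replicate 2, DMSO replicate 3 or CSC replicate 3 the 3 became 1.

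Among 16 aldo-keto and carbonyl reductases 3 were higher, with a median of 0.15. PTGR1, which reduces reactive alkenals, stood at 299, 287 and 280 CPM and then 447, 445 and 458 CPM (1.56-fold, adjusted p = 6.77e-10). AKR1C3, a ketosteroid reductase that also handles tobacco carbonyls, went from 47.9, 24.2 and 32.7 CPM to 94.8, 72.9 and 66.2 CPM (2.27-fold, adjusted p = 3e-06), and AKR1C1 rose from 6 to 16 counts a well to 17 to 28 (adjusted p = 0.00286). AKR1C genes are close paralogs, so 3′ reads may have been divided among them. PIR, a nuclear iron protein outside the lists, rose 2.34-fold. NADPH and pentose phosphate genes (12 tested, median 0.13) and the regulators of NRF2 (11 tested, median 0.09) had no member past the threshold. NFE2L2, the gene for NRF2, stood at 36.7, 44.1 and 52.1 CPM against 54.7, 45.1 and 32.6 CPM, and KEAP1 held 2 to 10 counts a well. In NRF2 cells, which overexpress it, NFE2L2 stood at 142.9 to 172.8 CPM in DMSO and 139.2 to 166.4 CPM in CSC, scaled over the wells of the 3 populations together. Over the 7 lists of NRF2-related genes together, 99 genes were tested, 15 were higher and 1 lower, and the median was 0.10. Of all genes tested, 0.706% were higher and 0.335% lower.

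**Figure D2:**
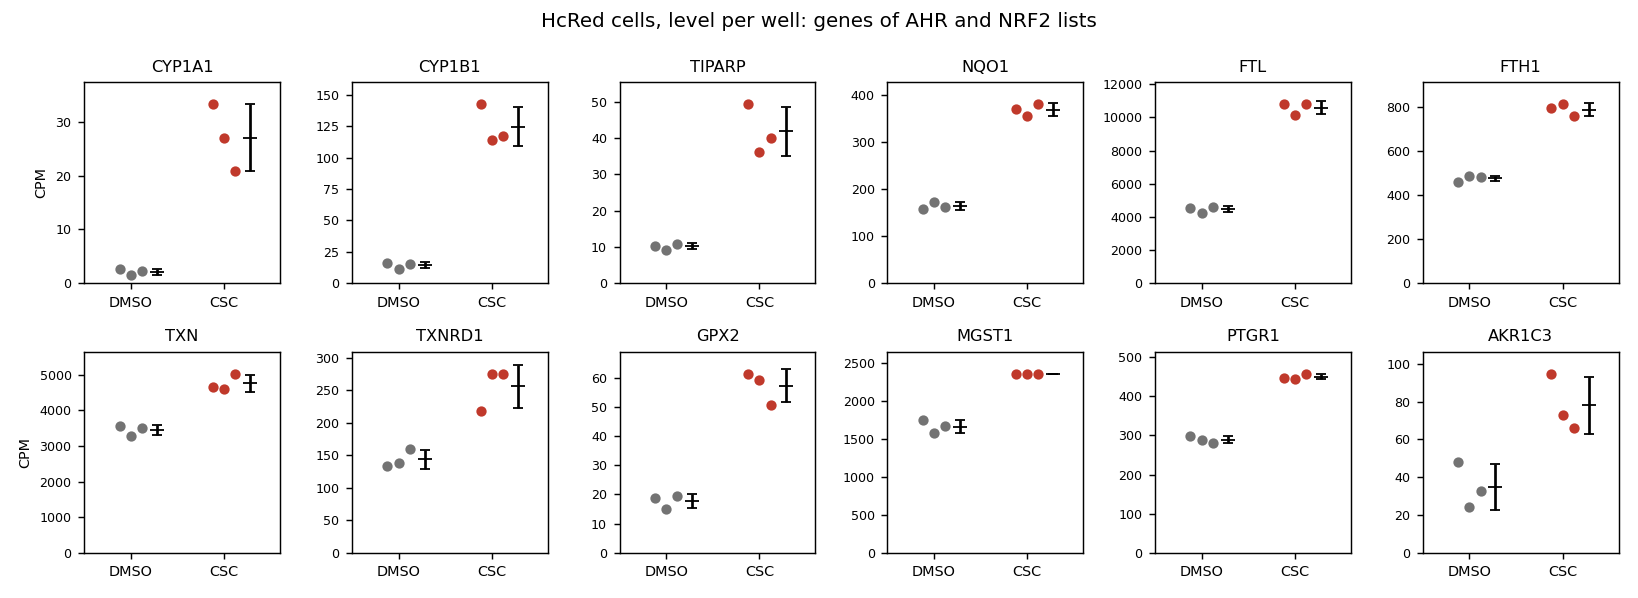
Level in CPM in each of the 3 DMSO wells (grey) and 3 CSC wells (red) for 12 genes of the AHR and NRF2 lists, on axes from 0, with the mean and SD beside the points. For CYP1B1 the DMSO wells reach 16.2 CPM and the lowest CSC well is at 114 CPM, and for AKR1C3 the highest DMSO well is at 47.9 CPM and the lowest CSC well at 66.2 CPM.

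The EGF receptor ligand gene AREG and the interleukin genes IL1A and IL1B rose. AREG (chr4:75310853-75320722), amphiregulin, a ligand of the EGF receptor, was at 84.6, 88.2 and 78.6 CPM in DMSO and 216, 263 and 320 CPM in CSC (3.19-fold, limma-voom adjusted p = 2.86e-18). It was 1 of 7 ERBB ligands and receptors tested to pass, with a list median of 0.74. EREG and HBEGF, related ligands, gave log2 changes of 1.18 (95% interval 0.43 to 1.93) and 1.6 (0.13 to 3.07) from 24 or fewer counts a well, without passing. IL1A (chr2:113531502-113542070, minus strand) stood at 13.7, 9.96 and 14 CPM and then 30.7, 33.8 and 37.2 CPM (2.73-fold, adjusted p = 6.14e-05). IL1B (chr2:113587328-113594393, minus strand) went from 8.55, 9.25 and 12.4 CPM to 29.4, 38.3 and 28.1 CPM (3.16-fold, adjusted p = 2.04e-05). Both are interleukins that start inflammation. These were 2 of 11 tested cytokine and NF-kB feedback genes, with a median of 0.36, while IL6, IL8 and CXCL1 held at most 4 counts in any well.

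Immediate early genes, which answer growth factor and stress signals within minutes, had 3 of 14 tested members higher and a median of 0.55. EGR1 was measured at 9.4, 14.2 and 10.1 CPM in DMSO and 24, 30.1 and 44.4 CPM in CSC (2.86-fold, adjusted p = 0.000137). DUSP1, a phosphatase that ends MAP kinase signals, rose 1.84-fold. FOS, with 12 counts over the 3 DMSO wells and 35 over the CSC wells, gave a count ratio of 3.54 (exact Poisson 95% interval 1.79 to 7.49) and an adjusted p of 0.0379. FOSL1 and JUNB did not pass, at log2 changes of 2.04 and 0.78. Without DMSO replicate 3 only 1 member passed. All 9 tested genes of ERK feedback had a change above 0, with a median of 0.53, and none passed.

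Genes of squamous differentiation went both ways, with 4 higher and 1 lower of 24 tested and a median of 0.11. SERPINB2 (chr18:61538926-61571122), a serpin of stressed keratinocytes, stood at 6.84, 7.83 and 8.56 CPM in DMSO and 33.4, 49.6 and 46.2 CPM in CSC (5.47-fold, adjusted p = 2.55e-09). S100A7, psoriasin, rose by 1.66 on the log2 scale with wide scatter, from 8.55, 6.4 and 8.56 CPM to 48.1, 25.6 and 15.4 CPM. SERPINB1 rose 1.69-fold. S100A8, calgranulin A, rose 1.24-fold, with 726, 672 and 650 CPM in DMSO and 1068, 796 and 761 CPM in CSC. The lower member was DSP, desmoplakin of the desmosome, at 215, 232 and 191 CPM against 178, 152 and 148 CPM (adjusted p = 0.00469).

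Keratins of the basal layer fell in part. KRT5 (chr12:52908359-52914314, minus strand), the defining keratin of airway basal cells, was at 345, 333 and 316 CPM in DMSO and 204, 204 and 163 CPM in CSC, 1.75 times lower (limma-voom adjusted p = 2.41e-10). Its partner KRT14 (chr17:39738531-39743147, minus strand) was at 74.4, 88.2 and 76.2 CPM and then 40, 39.1 and 53.5 CPM, 1.81 times lower (adjusted p = 0.000254). KRT17 and KRT6A, also keratins of basal and wounded epithelium, gave log2 changes of 0.19 (95% interval 0.05 to 0.34) and -0.19 (-0.34 to -0.04) and did not pass, and KRT17 lay above DMSO in each CSC well. In this list 2 of 9 tested genes were lower and none higher, with a median of -0.13. KRT19, a simple epithelial keratin, was at 359, 364 and 357 CPM and then 223, 236 and 237 CPM, 1.54 times lower (adjusted p = 2.37e-08), the 1 of 5 in its list, whose median was -0.51. KRT8 and KRT18, which pair with each other, gave -0.57 and 0.10 without passing.

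The labelled cell type was checked against these and other markers. KRT5, KRT14, KRT17, TP63, ITGA6 and EPCAM were counted in all 6 wells. Summed over the 7 basal cell markers the level was 817.9 to 822.4 CPM in DMSO and 673.3 to 714.7 CPM in CSC, and over the 7 epithelial markers 551.6 to 589.7 CPM and 423.1 to 448.7 CPM. KRT19 (357.1 to 364.3 CPM against 222.9 to 237.4 CPM) carried most of the epithelial gap, with EPCAM, CDH1, CLDN4, CLDN7 and KRT18 overlapping between groups and KRT8 lower in each CSC well. KRT5 and KRT14 carried the basal gap, while KRT17 was higher in each CSC well and ITGA6 overlapped. TP63, the basal lineage factor, overlapped between groups. Whether the lower sums were fewer cells of a kind or less RNA per cell cannot be told apart in bulk wells. Of 6 ciliated or secretory markers 5 were at 0 in all 6 wells, as were 4 of 7 of fibroblasts and 3 of 4 of endothelium. The leukocyte sum was 18.5 to 22.56 CPM in DMSO and 29.37 to 41.68 CPM in CSC, with PTPRC, CD3E and ITGAM at 0. Most of it was CD68, a lysosomal protein, at 12.8, 12.8 and 20.2 CPM and then 25.4, 30.8 and 35.3 CPM.

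Genes of the membrane, the actin skeleton and the matrix were among the lower ones. CAV1 (chr7:116165048-116201233), the scaffold of caveolae, stood at 667, 731 and 790 CPM in DMSO and 454, 462 and 499 CPM in CSC, 1.54 times lower (limma-voom adjusted p = 2.99e-11). PTRF (cavin-1), the coat protein of the same pits, was at 27.3, 28.5 and 24.1 CPM and then 12, 12.8 and 12.7 CPM, 2.07 times lower (adjusted p = 0.0201). They were the 2 lower of 7 caveola genes, with a median of -0.20, and CAV2 gave -0.20 (95% interval -0.53 to 0.13). The call of PTRF was lost without DMSO replicate 2 or any 1 of the CSC wells, which left 1 lower gene. Of 24 actin genes ACTB and TMSB4X, beta-actin and the monomer-binding thymosin, were lower at -0.35 and -0.25 and MYL12A, a myosin light chain, was higher at 0.26, around a median of -0.01.

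Of 33 matrix and integrin genes FN1 (fibronectin) and SPARC (osteonectin) were lower and TIMP1, an inhibitor of matrix metalloproteases, higher, with a median of -0.22. FN1 was at 41, 63.3 and 43.6 CPM and then 25.4, 30.8 and 27.2 CPM, and SPARC at 59, 49.1 and 67.7 CPM and then 36, 32.3 and 38.1 CPM. TIMP1 went the other way, from 1126, 1037 and 1137 CPM to 1576, 1593 and 1787 CPM (1.51-fold, adjusted p = 3.19e-16). EFEMP1, a fibulin of the matrix outside this list, was 1.72 times lower (adjusted p = 0.00321). Without CSC replicate 2 or 3 the count of lower matrix genes was 0. CD24, a surface glycoprotein, was at 185, 183 and 205 CPM and then 145, 120 and 98.8 CPM, 1.62 times lower.

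**Figure D3:**
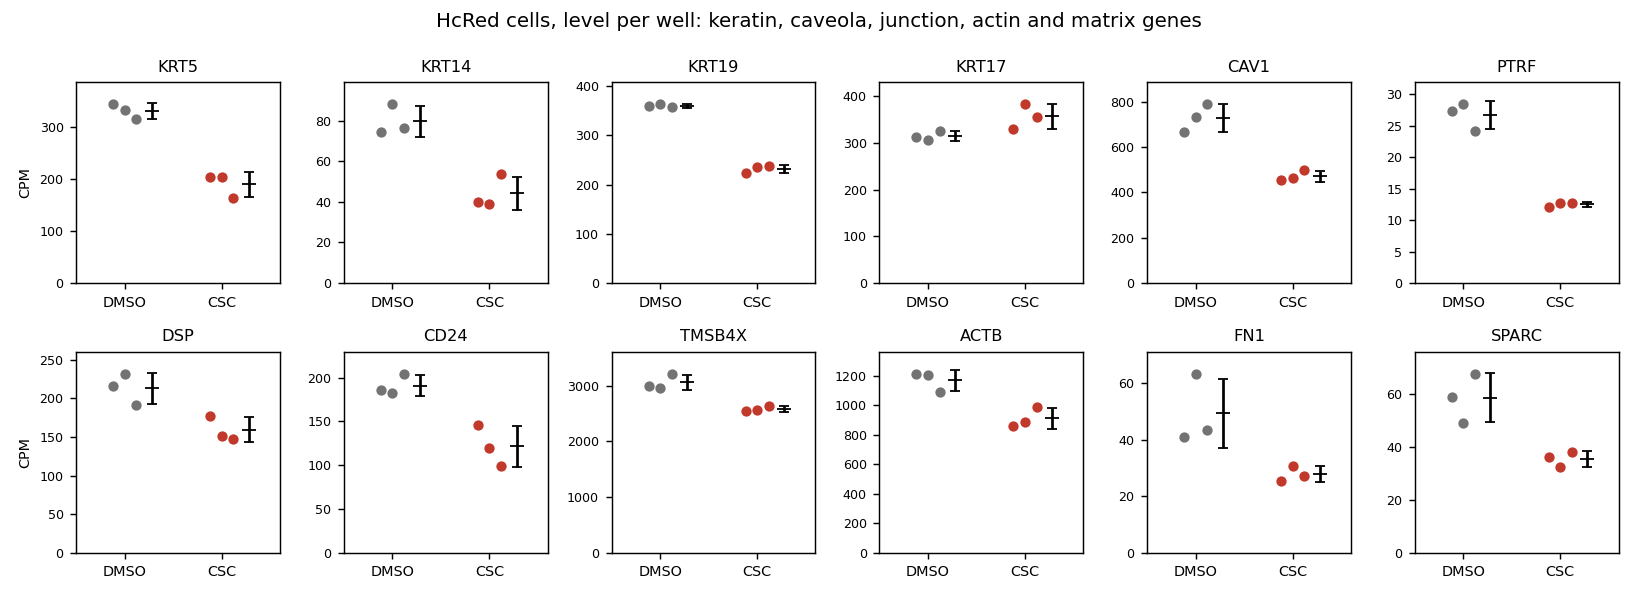
Level in CPM in each of the 3 DMSO wells (grey) and 3 CSC wells (red) for keratin, caveola, junction, actin and matrix genes, on axes from 0, with the mean and SD beside the points. KRT5 drops from 316 CPM or more to 204 CPM or less, while KRT17, shown for contrast, has its CSC wells at 331 to 384 CPM.

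Small, even shifts in abundant genes made up much of the rest. MALAT1, a nuclear long RNA and one of the most counted genes, rose 1.15-fold from 24772, 25331 and 26240 CPM to 29674, 29108 and 29316 CPM (adjusted p = 3.71e-29), a call that ended with robust moderation in limma (adjusted p = 0.0793) and in 1 limma fit over 82 wells of 31 groups (0.0965). S100A6, a calcium-binding protein, was at 7856, 6983 and 7388 CPM and then 10253, 9665 and 10130 CPM (1.35-fold, adjusted p = 2.24e-27, and 0.0744 with robust moderation), while S100A10, which carries annexin A2, was 1.14 times lower. They were the 1 higher and 1 lower of 16 S100 and annexin genes, with a median of -0.02. FXYD3, a subunit that tunes the sodium pump, rose 1.41-fold.

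Proteasome subunits had 3 of 31 tested genes past the threshold, PSMA3, PSMA5 and PSMB1, at log2 changes of 0.27, 0.24 and 0.18. Of the 31, 29 had a change above 0 with a median of 0.13, and 15 had CSC wells wholly above DMSO, against 6.66% of all genes. That share covers genes of every count (median mean count 10.33) and was not matched to the counts of the list. Without CSC replicate 3 none of the 31 passed.

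Genes of the cell cycle had 5 of 39 tested members lower and none higher, with a median of -0.11, and 14 had CSC wells wholly below DMSO, against 7.59% of all genes. Here too the share over all genes was not matched for count. The 5 were HMGB2, TUBB, TUBA1B, CENPF and MCM6, which pack chromatin, build the spindle, bind kinetochores and unwind replication origins. HMGB2 was at 1430, 1483 and 1610 CPM and then 1189, 1236 and 1229 CPM (1.23 times lower, adjusted p = 1.47e-06), and MCM6 at 49.6, 51.2 and 42.8 CPM and then 25.4, 27.8 and 31.7 CPM. MKI67, the usual mark of cycling cells, gave -0.38 (adjusted p = 0.13) and PCNA -0.03. Without CSC replicate 1 the 5 became 1, and over the other wells left out in turn the count reached 6. PTMA, prothymosin alpha of proliferating cells, was 1.15 times lower outside the list.

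Metallothioneins, which bind zinc and cadmium, had 2 of 9 tested members higher in HcRed cells, both with overlapping wells. In GFP cells 2 of 11 tested members were lower and none higher, and in NRF2 cells 2 of 8 were lower and none higher. MT1X changed by -0.25 in GFP and -0.39 in NRF2 cells, beside 0.16 in HcRed cells. MT2A was counted at 22726, 20834 and 22472 CPM in DMSO and 22496, 27744 and 33434 CPM in CSC, so the change of 0.40 (adjusted p = 4.56e-12) came with 1 CSC well inside the DMSO range. The call of MT2A ended by DESeq2 (adjusted p = 0.856), with robust moderation in limma (0.522) and in 1 limma fit over 82 wells of 31 groups (0.108). MT1X stood at 1787, 1795 and 2023 CPM and then 1883, 2180 and 2109 CPM (adjusted p = 0.0279), and ended in the same settings (0.542, 0.0662 and 0.784). Without any 1 of DMSO replicates 1 and 2 and CSC replicates 2 and 3 only 1 passed. The list median was 0.00, and metallothionein transcripts, like those of tubulins, actins and ribosomal proteins, have close copies whose 3′ reads may be shared.

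Of 78 cytosolic ribosomal protein genes 3 were lower (RPS2, RPL35 and RPS7, at -0.34, -0.09 and -0.09; 1 to 8 when a well was left out), with a median of -0.02, and PABPC1, which binds poly(A) tails, was lower at -0.42. SCD, the fatty acid desaturase, was the 1 lower of 23 sterol and fatty acid genes (median -0.09), and ENO1, an enolase, the 1 higher of 23 glycolysis and hypoxia genes (median 0.08) at 1.10-fold. No member passed among 22 DNA damage response genes (median 0.26), 25 genes of ATF4 and ER stress (-0.06), 18 heat shock genes (0.02), 22 interferon-stimulated genes (-0.04) or 51 nuclear genes of oxidative phosphorylation (-0.01). CDKN1A, the cell cycle inhibitor p21, was at 14.5, 12.8 and 9.34 CPM and then 25.4, 27.8 and 16.3 CPM, above DMSO in each CSC well but with an adjusted p of 0.11. MDM2, a ubiquitin ligase of the same list, gave 0.13 (95% interval -0.23 to 0.49).

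**Figure D4:**
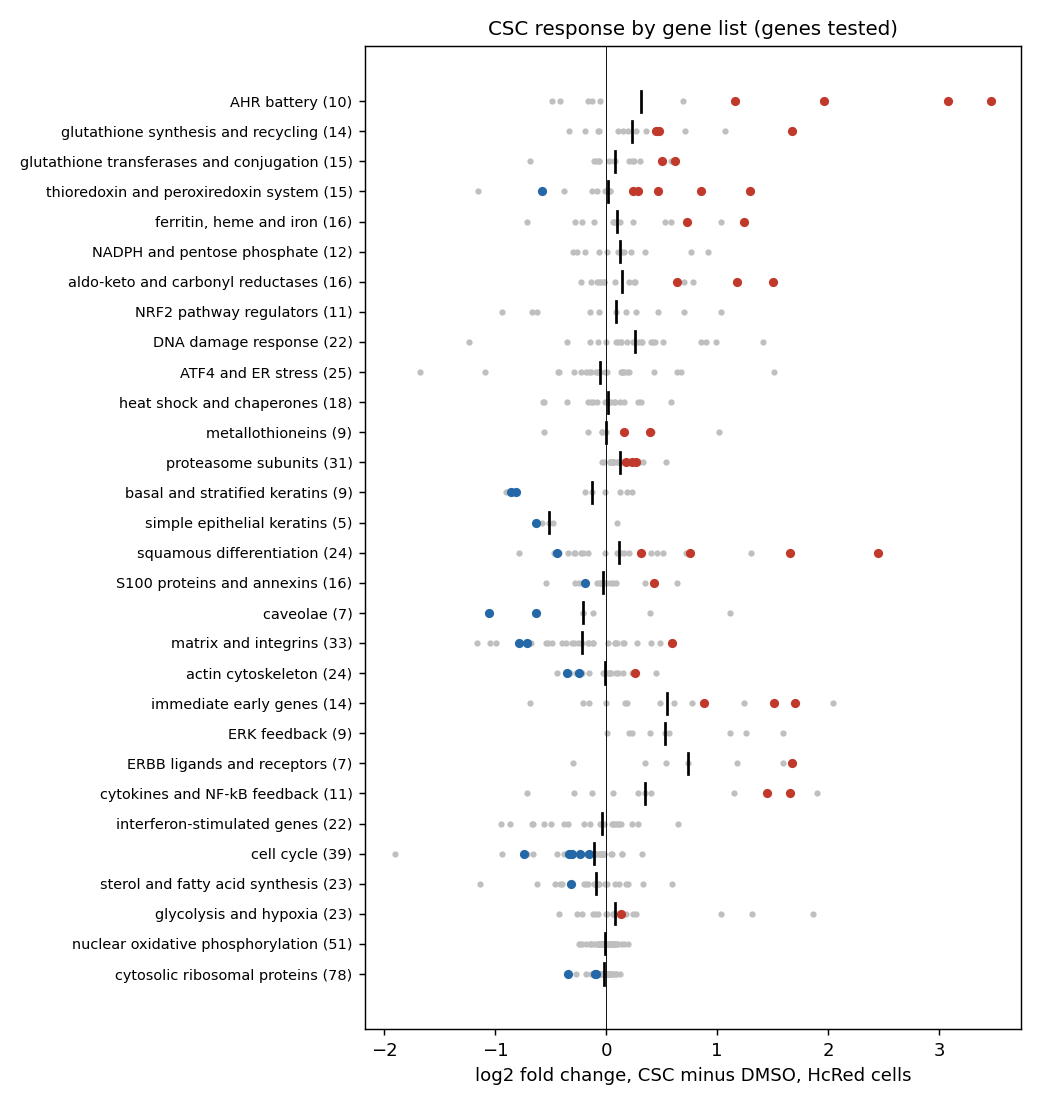
Log2 fold change between CSC and DMSO for each tested gene of 30 lists (number tested in parentheses), with higher genes in red, lower genes in blue, genes not past the threshold in grey and a bar at the list median. The AHR battery reaches 3.46 around a median of 0.32, while the 51 oxidative phosphorylation genes sit between -0.24 and 0.20.

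Leaving out 1 well at a time, 39 of the 66 genes named by rule in HcRed cells passed in all 6 fits and 27 did not pass in at least 1. Without DMSO replicate 1 the genes lost were RPS7, MT1X, MCM6 and FOS (adjusted p 0.0615 to 0.151), and without DMSO replicate 2 they were 15, among them DSP, CENPF, SRXN1, PTRF, FN1, SLC3A2 and GLRX (0.0658 to 0.421). Leaving out DMSO replicate 3 ended 12 calls, including S100A8, DUSP1, SRXN1, SPARC and TXNIP (0.0505 to 0.42). Without CSC replicate 1, the shallowest well, 15 were lost, with TUBB, TUBA1B, S100A10, CENPF, PTRF and TXNIP among them (0.0508 to 0.201). Leaving out CSC replicate 2 ended 16, such as PABPC1, DSP, SPARC and FN1 (0.0576 to 0.531), and CSC replicate 3 ended 20, such as EFEMP1, PSMA3, PSMB1, DUSP1, SCD and ENO1 (0.0504 to 0.556). DESeq2 ended 23 calls on the 6 wells, among them AKR1C1, SRXN1, GLRX, SLC3A2, TXNIP, DUSP1, S100A8, DSP, PTRF, FN1, SPARC, EFEMP1, MCM6, TUBA1B, SCD and ENO1 (adjusted p 0.0571 to 0.856). It gave FOS no adjusted p. The fit over 82 wells ended 35, among them PRDX1, SOD1, ACTB, TMSB4X, HMGB2, TUBB, CENPF, PTMA and FOS (0.0539 to 0.836). The counts of called genes were unchanged in each of the fits without 1 well for the AHR list, ferritins, glutathione transferases, basal keratins and cytokines, at 4, 2, 2, 2 and 2.

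The same HcRed cells were also exposed to single smoke constituents, benzo[a]pyrene (BaP, 173 µM) and the nitrosamine NNK (490 µM). All of these share the 3 DMSO wells, and the doses and plate rows differ, so values are given side by side without a test, in CPM scaled over the 12 HcRed wells. CYP1B1 was 11.1 to 15.6 in DMSO, 111 to 138.7 in CSC, 86.9 to 110 in BaP and 20.1 to 39.6 in NNK. CYP1A1 lay at 1.39 to 2.47 in DMSO, 20.3 to 32.4 in CSC, 20.5 to 42.2 in BaP and 4.72 to 8.57 in NNK. The BaP wells overlapped the CSC wells for CYP1A1 and lay under them for CYP1B1, and for both genes the NNK wells lay between BaP and DMSO.

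FTL lay in the same order as CYP1B1, while FTH1 and AREG did not. FTL ranged over 4149 to 4498 CPM in DMSO, 9845 to 10550 in CSC, 8316 to 9063 in BaP and 5092 to 5973 in NNK. FTH1 was 444.3 to 476.2 in DMSO, 740.3 to 793.2 in CSC, 431.3 to 559.1 in BaP and 359.8 to 379.3 in NNK, so the BaP wells overlapped DMSO and the NNK wells lay under it. AREG spanned 77.1 to 86.3 in DMSO, 210 to 311.9 in CSC, 154.7 to 205 in BaP and 133.5 to 218.4 in NNK, above DMSO in all 9 exposed wells. SERPINB2 was 6.58 to 8.40, 32.4 to 48.2, 12.6 to 14.5 and 5.58 to 11.8 CPM in the same order, with NNK across the DMSO range.

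KRT5 stood at 310 to 332.4 CPM in DMSO, 159 to 198.4 in CSC, 189 to 233.7 in BaP and 215.2 to 254 in NNK, below DMSO in all 9 exposed wells. CAV1 was 642.6 to 775.9, 440.8 to 486.8, 468.2 to 565.7 and 589.4 to 724.2 CPM in the same order, with the NNK wells overlapping DMSO. The study's scheme describes the numbers of samples per condition as biological replicates, and the labels of the 3 BaP libraries are 31, 2 and 32.

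GFP and NRF2 cells, which share no well with the HcRed comparison, were fitted alike. In GFP cells 139 of 10744 genes passed (1.29%) and in NRF2 cells 182 of 11236 (1.62%). Of the 78 genes higher in HcRed cells 76 were tested in GFP cells, where 71 had a change above 0, 41 also passed in that direction and 1 passed in the other. The shared 41 were 52.6% of the HcRed list and 64.1% of the 64 genes higher in GFP cells. In NRF2 cells 73 of 77 had a change above 0, 38 passed (48.7% and 59.4% of the lists) and 2 passed in the other direction. All 37 lower genes were below 0 in GFP cells, 20 of them past the threshold, which were 54.1% of the HcRed list and 26.7% of the 75 genes lower in GFP cells. In NRF2 cells 36 of 37 were below 0 and 20 passed, 54.1% of the HcRed list and 16.9% of the 118 genes lower there. Over all tested genes 49.1% were above 0 in GFP cells and 50.2% in NRF2 cells.

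In all 3 populations 30 genes were higher and 16 lower. The 30 included CYP1A1, CYP1B1, TIPARP and NQO1 of the AHR list, FTL, FTH1, TXN, TXNRD1, PRDX1, GPX2, MGST1, GSTM3, PTGR1 and AKR1C3 of the NRF2 lists, and AREG, EGR1, IL1B and SERPINB2. KRT5, KRT14, KRT19, CAV1, TMSB4X, HMGB2, TUBB, TUBA1B and TXNIP were among the 16. CYP1B1 rose by 3.88 on the log2 scale in GFP and 3.67 in NRF2 cells, and CYP1A1 by 4.75 and 4.11. NQO1 rose by 1.5 and 1.17, and KRT14 changed by -1.06 and -1.22. CAV1 gave -0.43 and -0.95 beside -0.63 in HcRed cells.

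**Figure D5:**
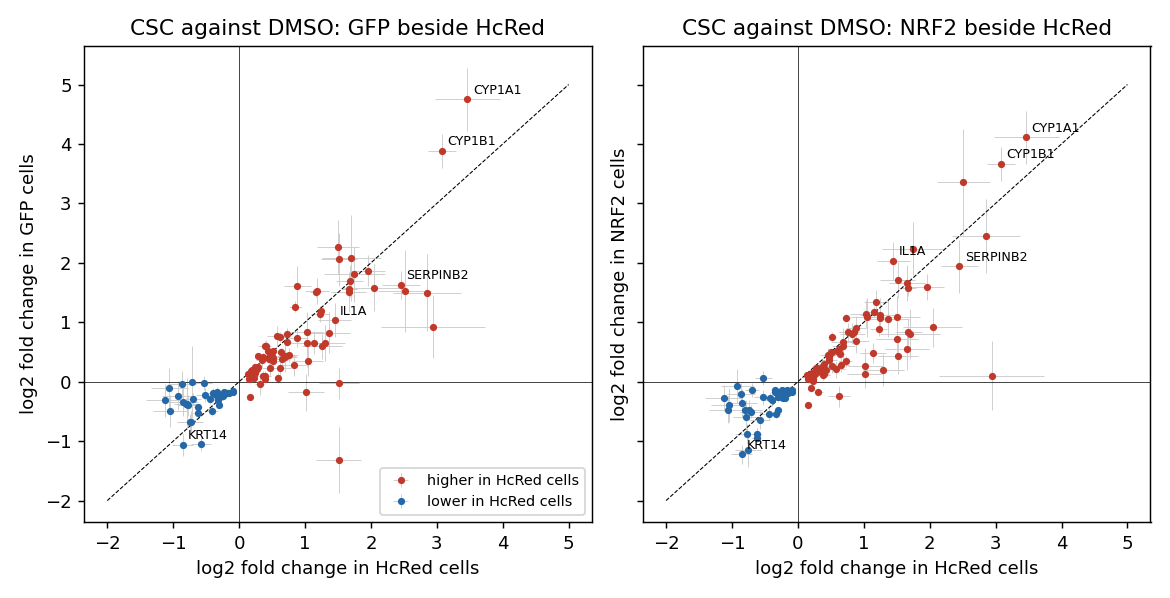
Log2 fold change under CSC in GFP cells (left) and NRF2 cells (right) against that in HcRed cells for the genes past the threshold in HcRed cells, with standard errors as grey lines and equality dashed. Of the higher genes 71 of 76 lie above 0 in GFP cells and 73 of 77 in NRF2 cells, and CYP1A1 and CYP1B1 lie above the dashed line in both.

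The difference between responses was tested in its own fit of 12 wells. Against GFP cells 5 of 11046 genes differed (0.0453%), each with a lower response in GFP cells. TIMP1 rose by 0.59 in HcRed cells and gave 0.06 in GFP cells, a difference of -0.54 (standard error 0.101, limma-voom adjusted p = 0.00334). MT2A gave 0.40 in HcRed and 0.05 in GFP cells, and MT1X 0.16 and -0.25, with differences of -0.35 and -0.42. HIST1H4C, a histone, and RPS27, a ribosomal protein, did not pass in HcRed cells and differed by -0.33 and -0.15. The level of TIMP1 without CSC was not the same in the populations, at 1037 to 1137 CPM in HcRed cells and 319.7 to 338.8 CPM in GFP cells. For the genes of the AHR and NRF2 lists no difference was past the threshold, but the intervals were wide. That for CYP1A1 ran from -0.12 to 2.67, for CYP1B1 from 0.09 to 1.49 and for NQO1 from 0.09 to 0.57, as GFP minus HcRed.

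Against NRF2 cells 26 of 11257 genes differed (0.231%), 2 with a higher response in NRF2 cells and 24 with a lower one. FTH1, the heavy chain, rose by 0.73 in HcRed cells and by 1.08 in NRF2 cells, a difference of 0.35 (standard error 0.0822, limma-voom adjusted p = 0.0311). FTL went the other way, with 1.24 and 1.08 and a difference of -0.17 (standard error 0.0319, adjusted p = 0.00211). The light chain started higher in NRF2 cells, at 7284 to 7452 CPM without CSC and 15173 to 15870 CPM with it. These values were scaled over the wells of the 3 populations together, and those of HcRed cells above within their 6 wells. TGFBI, a matrix protein, gave -0.22 in HcRed cells and 0.52 in NRF2 cells. MALAT1 differed by -0.31, S100A6 by -0.23, MT1X by -0.54 and S100A8 by -0.48, and RPL26 and RPS27A, with changes of 0.01 and 0.00 in HcRed cells, by -0.17 each. The changes of MALAT1, MT1X and S100A8 in NRF2 cells were below 0, at -0.11, -0.39 and -0.17, and that of S100A6 was 0.20. Of the 26 genes 16 were cytosolic ribosomal protein genes, and all 16 had the lower response in NRF2 cells. Within the populations 48 of the 78 ribosomal protein genes were lower in NRF2 cells and 35 in GFP cells, against 3 in HcRed cells. Over all genes tested, 118 of 11236, 75 of 10744 and 37 of 11043 were lower in the same order. The number among the differences depended on the setting, with 2 of 9 genes under library totals, 7 of 16 by DESeq2 and 0 of 6 by edgeR's quasi-likelihood test. Against GFP cells RPS27 was the 1 ribosomal protein gene of the 5, and under library totals none of the 5 was. For CYP1B1 the interval of the difference was -0.13 to 1.31, and for NQO1 -0.22 to 0.24.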

How the data were processed

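Per the labels and the study's methods, 3′DGE libraries were barcoded by well and tagged with UMIs, aligned with BWA 0.7.10 (seed 24) to RefSeq transcripts of hg19, and each UMI was counted once per gene and well. The deposited files hold these raw counts, 1 per gene and library, which the authors did not normalize. Replicates were not pooled. Wells were grouped by their labels. Genes with a mean count above 1 in the wells compared were scaled by TMM (edgeR 4.0.16) and tested two-sided with limma-voom (limma 3.58.1, R 4.3.3) at a Benjamini-Hochberg adjusted p of 0.05, within each population and, for differences of responses, with an interaction term. Intervals are 95%. Other settings were edgeR's quasi-likelihood test, DESeq2 1.42.0, its size factors, library totals, other count filters, a replicate block, robust moderation, 1 fit over 82 wells of 31 groups and leaving out each well. The gene lists (686 genes, matched by symbol, 5 by an older symbol) and the members were chosen with earlier results of these data known, as were the tests. Genes are named where they are CYP1A1, CYP1B1 or FTL, are among the 15 higher and 15 lower with the smallest p and no overlap of wells, passed and belong to a list, complete a group, or are among the 5 of smallest p each way in a difference of responses. Gene positions are from GENCODE on hg19, and promoter sequences from RefSeq on GRCh38.p14, where CYP1B1 and FTH1 were not matched. In all, 12852 genes fell under the count filter, 9307 of them with no count in the 6 wells. Each well's depth limits precision to that of its count.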

Additional observations from a re-analysis of the deposited data

Results flagged for a closer look

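Genes whose response to CSC differed between HcRed cells and another population, by the interaction test, are given as the difference on the log2 scale (other population minus HcRed). Against GFP cells MT1X differed by -0.421, TIMP1 by -0.543, MT2A by -0.348, HIST1H4C by -0.33 and RPS27 by -0.149. Against NRF2 cells MALAT1 differed by -0.314, MT1X by -0.543, S100A6 by -0.235, RPL26 by -0.175, RPS27A by -0.175, S100A8 by -0.479 and FTL by -0.166, while TGFBI differed by 0.732 and FTH1 by 0.35. In 1 fit over 82 wells of 31 groups no gene passed in either comparison, with 450 and 505 genes at an unadjusted p under 0.05.

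HcRed wells exposed to BaP and NNK entered no comparison here (the 3 NNK wells and 1 BaP well entered only the fit over 82 wells, to estimate the spread), and their CYP1 levels lay above every DMSO well. The lowest CYP1A1 level was 20.5 CPM under BaP and 4.72 CPM under NNK, and the lowest CYP1B1 level 86.9 CPM and 20.1 CPM. The highest DMSO wells held 2.47 CPM of CYP1A1 and 15.6 CPM of CYP1B1 on the same scale.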

How the results depend on the processing

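The 115 calls in HcRed cells became 57 by DESeq2, 76 without a count filter and 49 in 1 fit over 82 wells of 31 groups, and 78 (without CSC replicate 3) to 112 when a well was left out. DESeq2's 57 and the 49 were all among the 115. Without the shallowest well, CSC replicate 1, 108 passed (86 higher, 22 lower), 91 of them shared. Library totals gave 161, 109 of them shared, with 89 lower, and moved the median over all genes to -0.04. Of 66 named genes none reversed in any setting that gave them an adjusted p, while 35 lost their call in the fit over 82 wells. By DESeq2 23 of 65 lost theirs, and FOS had no adjusted p there. CYP1A1, CYP1B1, FTL, FTH1, NQO1, TIPARP, TXN, TXNRD1, GPX2, AREG, KRT5, KRT14, KRT19 and CAV1 passed in every setting. With robust moderation MALAT1, S100A6, MT2A, MT1X and S100A8 lost their calls. GFP cells gave 69 calls by DESeq2, 43 in the fit over 82 wells and 83 to 151 without a well. NRF2 cells gave 114 by DESeq2, 54 in the fit over 82 wells and 142 to 183 without a well.

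Differences of responses were less stable. Against GFP cells the 5 became 2 by DESeq2, 11 with its size factors, 0 without a filter (797 at an unadjusted p under 0.05), 1 with robust moderation, 0 in the fit over 82 wells (450 unadjusted) and 1 to 15 without a well, the extremes being GFP CSC replicates 3 and 2. Against NRF2 cells the 26 became 6 by edgeR, 16 by DESeq2, 9 with library totals, 14 with robust moderation, 0 in the fit over 82 wells (505 unadjusted) and 16 to 49 without a well. The causes were not tested. The replicate block gave 102 calls in HcRed cells, 36 differences against GFP cells and 61 against NRF2 cells. Same-numbered wells did not deviate together (correlations 0.046, 0.00327 and 0.0158). Wells of unlike number gave -0.0541 to 0.048, so the numbers were not taken to pair wells. The depth limits calls in low genes.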

Other observations

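Some genes outside the naming rule are given here because their values were seen to stand apart. ANGPTL4, a lipase inhibitor, had no count in the 3 DMSO wells and 1, 6 and 5 counts in the CSC wells. EPGN, a further ligand of the EGF receptor, had 2, 0 and 1 counts in DMSO and 3, 8 and 11 in CSC.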
